A study of Mus musculus with 6 samples.

Results

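The glutathione transferases of the Alpha, Pi and Theta classes were examined in mouse liver after a short high-cholesterol diet. The set holds 10 genes, chosen because their symbol in the deposited tables is Gsta1, Gsta2, Gsta3 or Gsta4 (Alpha, 4 genes), Gstp1, Gstp2 or Gstp3 (Pi, 3 genes), or Gstt1, Gstt2 or Gstt3 (Theta, 3 genes). They are 10 of 20673 genes in the tables, and all 10 had enough reads to be among the 13105 genes tested. The livers came from C57BL/6J mice without a genetic change. Of these, 3 had been fed a regular diet (RD), which the labels call no treatment, and 3 a high-cholesterol diet (HCD) for 3 days. The HCD is a cocoa butter diet with added cholesterol and sodium cholate, so cholesterol, fat and bile acid changed together and their parts cannot be told apart. The mice were around 12 weeks old, males and females were both used, and the sources used here do not give the sex of the mouse behind each liver.

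Glutathione transferases join the tripeptide glutathione to electrophilic molecules, which include drugs, environmental toxins and the aldehydes left when membrane lipids are oxidized. The product is more soluble in water and is pumped out of the cell. The cytosolic enzymes work as pairs of subunits from the same class, and liver is among the tissues richest in them. Alpha enzymes also reduce lipid hydroperoxides, Pi enzymes handle a broad range of electrophiles, and Theta enzymes act on small halogenated hydrocarbons and on sulfate esters. Transcription factors that sense oxidants (NRF2) and foreign compounds (CAR, PXR, AhR) are known to raise several of these genes.

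Counts on genes totalled 13771630 to 23129576 per RD liver and 13935491 to 18545549 per HCD liver. CPM are counts scaled to a common library total. By these totals alone, without TMM factors, 3 counts stand for 0.130 to 0.218 CPM. The CPM used below, unless FPKM is named, were scaled with TMM factors as well. FPKM also divides by gene length. Albumin was the most abundant of 10 hepatocyte markers, and all of these were present in each liver. Among genes known to respond to cholesterol or bile acid feeding, Abcg5, Abcg8 and Nr0b2 rose, and Sqle, Cyp7a1 and Cyp8b1 fell. Nr0b2 lost its call without HCD replicate 1, the liver described next (adjusted p = 0.0303 with it and 0.0502 without). HCD replicate 1 stood apart from the other 5 livers in sex-linked RNA. Xist, made from the inactive X chromosome, was at 254 CPM in HCD replicate 1 and had no count in the other 5 livers. The Y-linked genes Ddx3y, Uty, Kdm5d and Eif2s3y had no count in HCD replicate 1 and were detected in the other 5. A list of 12 genes known to be higher in male liver summed to 386 CPM in HCD replicate 1 and to between 6836 and 10981 CPM in the others. A list of 12 genes known to be higher in female liver summed to 2067 CPM there and to between 0.481 and 5.19 CPM in the others. Calls and directions of the members are given with and without it, as are list calls lost without it. The labels number the livers but do not name the animals, so the p-values measure the spread between these samples.

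The classes are separate in the genome and in sequence. Positions are from the GENCODE M21 annotation of GRCm38, because the deposited tables carry none and their gene lengths matched M21 for most genes. The submitters' processing notes name GRCm39, for which no annotation was used here. Of the Alpha genes, Gsta4 (78182774 to 78209349, plus strand), Gsta1 (78230656 to 78242684, plus strand) and Gsta2 (78331018 to 78355788, minus strand) lie near each other on chromosome 9. Gsta3 lies apart from them on chromosome 1 (21240589 to 21265661, plus strand). The Pi genes form a cluster on the minus strand of chromosome 19, with Gstp1 at 4035407 to 4037985, Gstp2 at 4040285 to 4046023 and Gstp3 at 4057477 to 4059569. The Theta genes form another on the minus strand of chromosome 10, with Gstt3 at 75774115 to 75781414, Gstt1 at 75783813 to 75798584 and Gstt2 at 75831114 to 75837424. All 10 are annotated as protein coding. Their coding sequences hold 221 to 223 codons in the Alpha class, 210 in the Pi class and 240 to 244 in the Theta class, stop codon not included.

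Coding sequences of members from different classes shared 44.8% to 51.7% of aligned bases (33 pairs, median 48.2%). Members of the same class shared 60.5% to 98.1% (12 pairs, median 73.0%). Gsta1 and Gsta2 shared 97.6%, with 16 differing positions of 669, and Gstp1 and Gstp2 shared 98.1%, with 12 differing positions of 630. Gstt1 and Gstt2 were the least alike within a class. Gsta3, Gsta4, Gstp3, Gstt1 and Gstt2 had no other transcript in M21 that aligned over at least 200 bases at 85% identity or more.

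**Figure D1:**
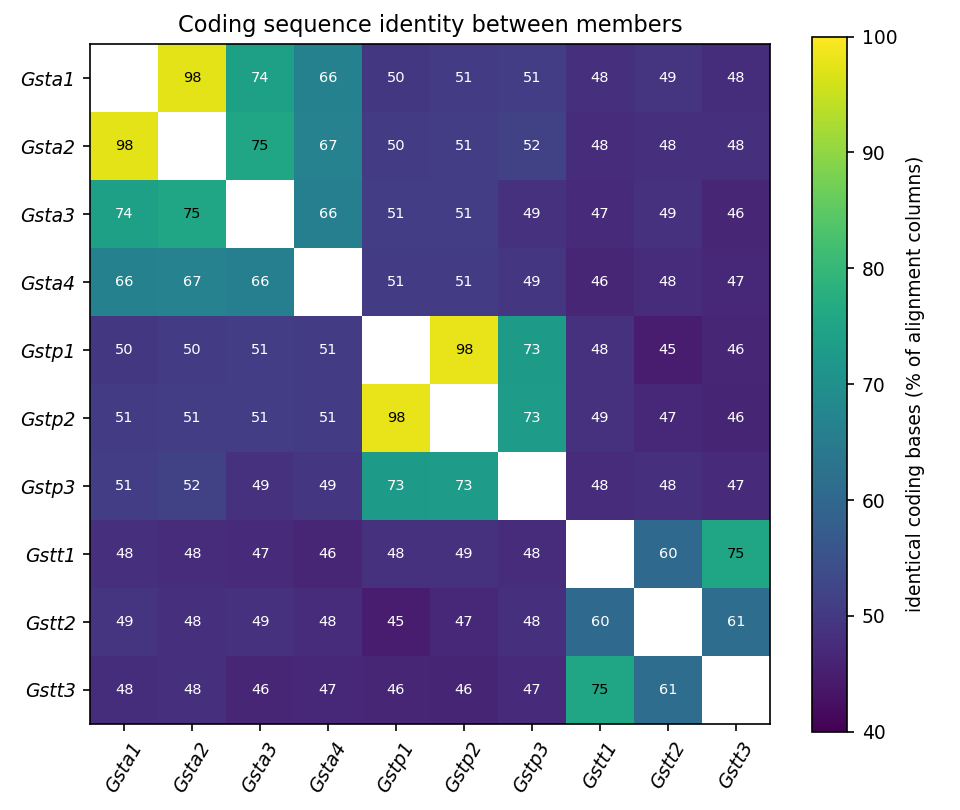
Identity of coding sequences between the 10 members, as the percent of alignment columns that hold the same base (colour and number in each cell, rounded to whole percent), with members ordered by class on both axes. Gsta1 with Gsta2 (97.6%) and Gstp1 with Gstp2 (98.1%) stand out from all other pairs, and pairs from different classes lie between 44.8% and 51.7%.

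The stretches below show how little separates each of these pairs. They run 5′ to 3′ in the M21 transcripts, positions are counted from the first base of the start codon, and capitals mark the bases that differ within the pair. For the Alpha pair the stretch covers coding positions 419 to 508, with 5 of the 16 differences. For the Pi pair it covers coding positions 1 to 90, with 6 of the 12 differences.
Gsta1: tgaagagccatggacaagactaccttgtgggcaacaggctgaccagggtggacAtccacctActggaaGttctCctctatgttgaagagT
Gsta2: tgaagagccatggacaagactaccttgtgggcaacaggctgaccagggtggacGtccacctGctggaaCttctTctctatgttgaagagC
Gstp1: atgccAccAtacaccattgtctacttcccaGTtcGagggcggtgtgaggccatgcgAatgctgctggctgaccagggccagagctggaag
Gstp2: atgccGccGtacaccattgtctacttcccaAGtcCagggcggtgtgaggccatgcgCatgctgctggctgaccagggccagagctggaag

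The longest run without a difference was 196 bases between Gsta1 and Gsta2 and 300 bases between Gstp1 and Gstp2. A read that lies wholly inside such a run cannot be assigned to either gene by its sequence. The sources used here do not say how such reads were counted, so the split between the genes of a pair is uncertain, and their sums are given below beside the single values.

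Per unit length, Gstp1 was the most abundant member in RD livers at 3962 ± 556 FPKM (SD, n = 3). It was followed by Gsta3 at 457 ± 26.7 FPKM, Gstt1 at 209 ± 26.7 FPKM and Gsta4 at 63.9 ± 14.1 FPKM. Each of these 4 was above the next in the order in all 3 RD livers. So 1 gene per class carried most of the RNA of its class, Gsta3 for Alpha, Gstp1 for Pi and Gstt1 for Theta. The other members followed with RD levels of 23.6 ± 6.73 FPKM for Gstp3, 20.8 ± 9.01 for Gsta2, 12.7 ± 3.00 for Gstp2, 9.94 ± 2.46 for Gstt3, 9.43 ± 1.37 for Gstt2 and 4.45 ± 3.68 for Gsta1. Neighbours among these 6 overlapped between livers, so the order within each neighbouring pair is not resolved. Members further apart were in part separate. Every RD value of Gstp3 was above those of Gstp2, Gstt3, Gstt2 and Gsta1, and every RD value of Gsta2 above those of Gstt3, Gstt2 and Gsta1. The lengths behind the FPKM of the Pi genes were shorter than in M21 (757 against 1548 bases for Gstp1, 770 against 1113 for Gstp2 and 709 against 908 for Gstp3), and those of the Alpha and Theta genes were equal to it.

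In HCD livers the order at the top was the same by mean, with Gstp1 at 3536 ± 2672 FPKM, Gsta3 at 506 ± 83.7, Gstt1 at 295 ± 91.3 and Gsta4 at 163 ± 18.4. Here Gstp1 overlapped Gsta3, because 1 HCD liver was low for Gstp1. Gsta2 came next at 87.6 ± 35.7 FPKM and was above Gstp3 (41.2 ± 13.6 FPKM) in each liver. Gstt3 (21.7 ± 10.9), Gsta1 (20.03 ± 13.7) and Gstt2 (18.5 ± 4.30) overlapped each other, and Gstp2 was lowest by mean, at 7.62 ± 4.25 FPKM, overlapping Gstt3 and Gsta1.

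**Figure D2:**
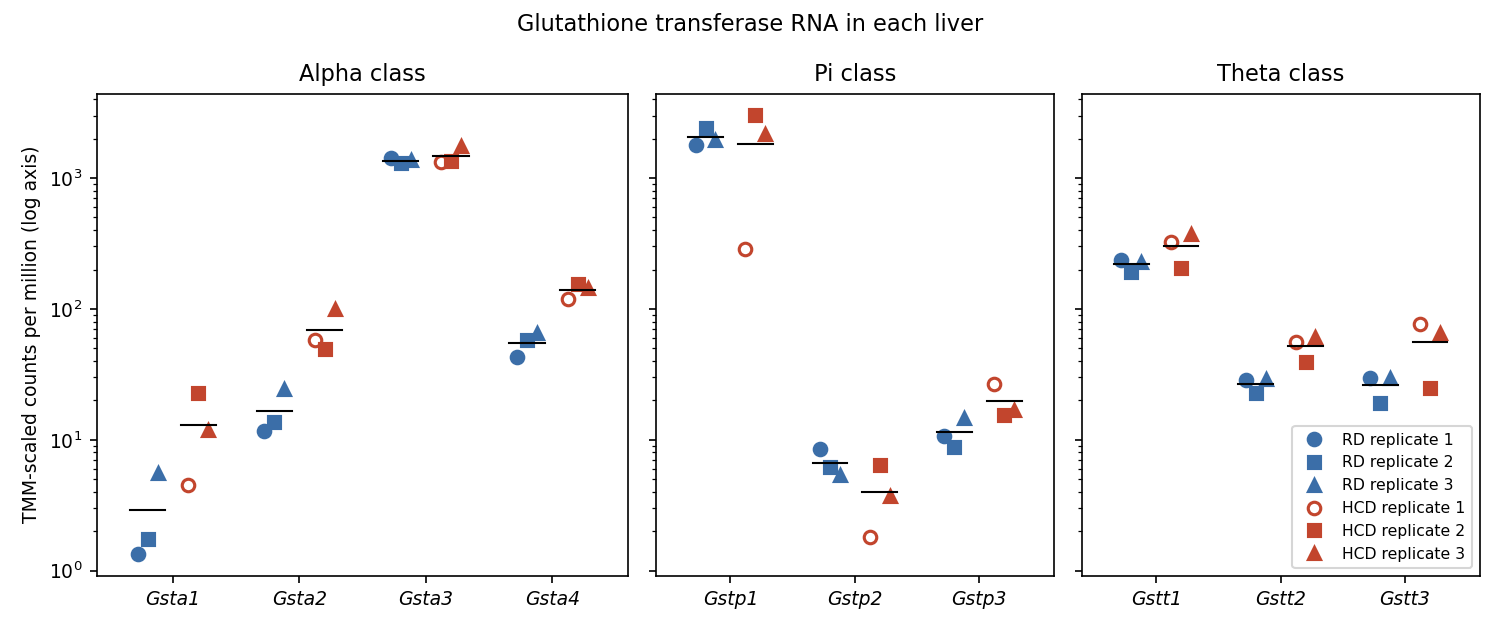
CPM (TMM-scaled counts, log axis) of each member in each liver, in 3 panels by class. Blue symbols are RD livers, red symbols HCD livers, the open circle is HCD replicate 1, and black lines are means of 3 livers. The HCD livers lie above all RD livers for Gsta2, Gsta4, Gstp3 and Gstt2, and HCD replicate 1 lies far below the others for Gstp1, at 285 CPM. Because counts here are not divided by gene length, heights compare livers within a gene and not genes with each other.

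Gsta4, the Alpha enzyme known for conjugating 4-hydroxynonenal, an aldehyde of lipid peroxidation, gave the clearest difference between the diets. It measured 42.6, 58.2 and 65.1 CPM in RD replicates 1, 2 and 3 and 118.9, 154.3 and 143.4 CPM in HCD replicates 1, 2 and 3. The lowest HCD liver was well above the highest RD liver. Gsta4 rose 2.51-fold, a log2 fold change of 1.33 (adjusted p = 0.0130 by the quasi-likelihood F test of edgeR, standard error 0.18). The exact two-sided permutation test gave p = 0.1, which is the smallest that 3 livers against 3 allow. Without HCD replicate 1 the log2 fold change was 1.43 (adjusted p = 0.0140). The call was lost when RD replicate 1 (adjusted p = 0.0649), RD replicate 2 (0.0745) or HCD replicate 3 (0.0542) was left out, with log2 fold changes between 1.17 and 1.46 over the 6 omissions.

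Gsta2, which with Gsta1 belongs to the Alpha genes known to be inducible by antioxidants and foreign compounds, rose by more. It measured 11.7, 13.7 and 24.5 CPM in RD replicates 1, 2 and 3 and 58.0, 49.2 and 100.5 CPM in HCD replicates 1, 2 and 3. The diets did not overlap, and relative to its mean the spread within each was wider than for Gsta4. The fold was 4.14, a log2 fold change of 2.05 (adjusted p = 0.0252, standard error 0.35). Without HCD replicate 1 it was 2.16 (adjusted p = 0.0314). The call was lost without RD replicate 1 (1.85, adjusted p = 0.112), RD replicate 2 (1.93, 0.122) or HCD replicate 3 (1.68, 0.0664).

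Gsta1 had the highest log2 fold change of the 10 but also the widest scatter in the Alpha class. It measured 1.35, 1.74 and 5.56 CPM with RD and 4.50, 22.7 and 11.9 CPM with HCD, in the order of replicates 1, 2 and 3. HCD replicate 1 was below RD replicate 3, so the diets overlapped. The log2 fold change of 2.15 (standard error 0.67) did not pass the test (adjusted p = 0.125, exact permutation p = 0.2). It ranged from 1.47 without HCD replicate 2 (adjusted p = 0.255) to 3.07 without RD replicate 3 (adjusted p = 0.0818), and was 2.56 without HCD replicate 1 (adjusted p = 0.0604). Of the alternatives run at this threshold only the fit without a low-count filter called it (adjusted p = 0.0427). Its counts were 7.75% to 46.1% of those of Gsta2 in a liver, with no common ratio between livers.

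Copies of these genes add to the uncertainty for the Alpha pair. Gm3776, a protein-coding gene between them on chromosome 9, aligned to Gsta1 with 99.5% identity over 874 bases, and its counts were 6, 7 and 23 with RD and 22, 89 and 75 with HCD. Gm10639, which aligned to Gsta2 with 98.3% identity over 864 bases, had at most 1 count in any liver. With the counts of Gsta1 and Gsta2 summed before the fit, the pair rose by a log2 fold change of 2.07 (adjusted p = 0.0238, standard error 0.34). Adding Gm3776 and Gm10639, an alternative chosen after seeing the data, gave 2.10 (adjusted p = 0.0236). The rise of the summed pair passed the test in both forms.

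Gsta3, the most abundant Alpha member and the enzyme known to protect mice from the epoxide of aflatoxin, was nearly level. It measured 1423, 1293 and 1362 CPM in the RD livers and 1333, 1358 and 1744 CPM in the HCD livers. HCD replicate 3 alone was above the RD range. Between the diets it differed by 0.12 on the log2 scale (adjusted p = 0.730, standard error 0.17, exact permutation p = 0.7). The difference was 0.19 without HCD replicate 1 (adjusted p = 0.562) and -0.023 without HCD replicate 3. Its share of the summed Alpha FPKM was 80.1% to 87.9% in RD livers and 62.5% to 67.5% in HCD livers. The share of Gsta2 was 2.67% to 5.31% with RD and 8.36% to 13.9% with HCD, and that of Gsta4 was 9.04% to 13.1% with RD and 18.5% to 24.4% with HCD.

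Gstp1, the main Pi enzyme, is known to be more abundant in male than in female mouse liver. It measured 1799, 2405 and 1960 CPM in RD replicates 1, 2 and 3 and 285, 3009 and 2166 CPM in HCD replicates 1, 2 and 3. HCD replicate 1, the liver with Xist RNA and without Y-linked RNA, was far below the rest, and the mean of the other 5 livers was 7.95 times its value. HCD replicates 2 and 3 were at or above the middle of the RD livers. The log2 fold change over all 6 livers was -0.18 (adjusted p = 0.904, standard error 0.64, exact permutation p = 0.9). Without HCD replicate 1 it was 0.33 (adjusted p = 0.404), so this liver decided the direction, and without HCD replicate 2 it was -0.75 (adjusted p = 0.569).

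Gstp2, whose protein has low activity toward the usual test substrate, was a minor gene with the same low liver. It measured 8.51, 6.14 and 5.38 CPM with RD and 1.82, 6.41 and 3.73 CPM with HCD, and the other 5 livers averaged 3.32 times HCD replicate 1. The log2 fold change of -0.75 (adjusted p = 0.368, standard error 0.44) became -0.39 without that liver (adjusted p = 0.578) and -1.30 without HCD replicate 2 (adjusted p = 0.138). Gstp2 counts were 0.172% to 0.638% of those of its near copy Gstp1, and whether reads of Gstp1 were counted on Gstp2 was not tested.

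Gstp3, at 73% coding identity the more distant Pi member, went the other way in HCD replicate 1. It measured 10.6, 8.86 and 14.7 CPM with RD and 26.7, 15.4 and 16.8 CPM with HCD. All HCD livers were above all RD livers, and HCD replicate 1 was highest, at 2.01 times the mean of the other 5. The difference of 0.78 on the log2 scale (standard error 0.27) did not pass the test (adjusted p = 0.151, exact permutation p = 0.1), and was 0.49 without HCD replicate 1 (adjusted p = 0.307).

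The processed pseudogene Gstp-ps on chromosome 1 (192073820 to 192074450) aligned to Gstp1 with 97.9% identity over 624 bases and to Gstp2 with 99.2% over 631 bases. It measured 205, 219 and 168 CPM with RD and 38.7, 372 and 315 CPM with HCD. Like Gstp1 it was lowest in HCD replicate 1, while HCD replicates 2 and 3 were both above all RD livers. Its log2 fold change was 0.29 (adjusted p = 0.827), opposite in sign to that of Gstp1 with all livers, and the sign of Gstp1 turned without HCD replicate 1. In each liver its counts were 8.56% to 14.6% of those of Gstp1. Summing Gstp1, Gstp2 and Gstp3 gave a log2 fold change of -0.17 (adjusted p = 0.904), and 0.33 without HCD replicate 1 (adjusted p = 0.402). Adding Gstp-ps gave -0.12 (adjusted p = 0.933), and 0.38 without HCD replicate 1 (adjusted p = 0.330).

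**Figure D3:**
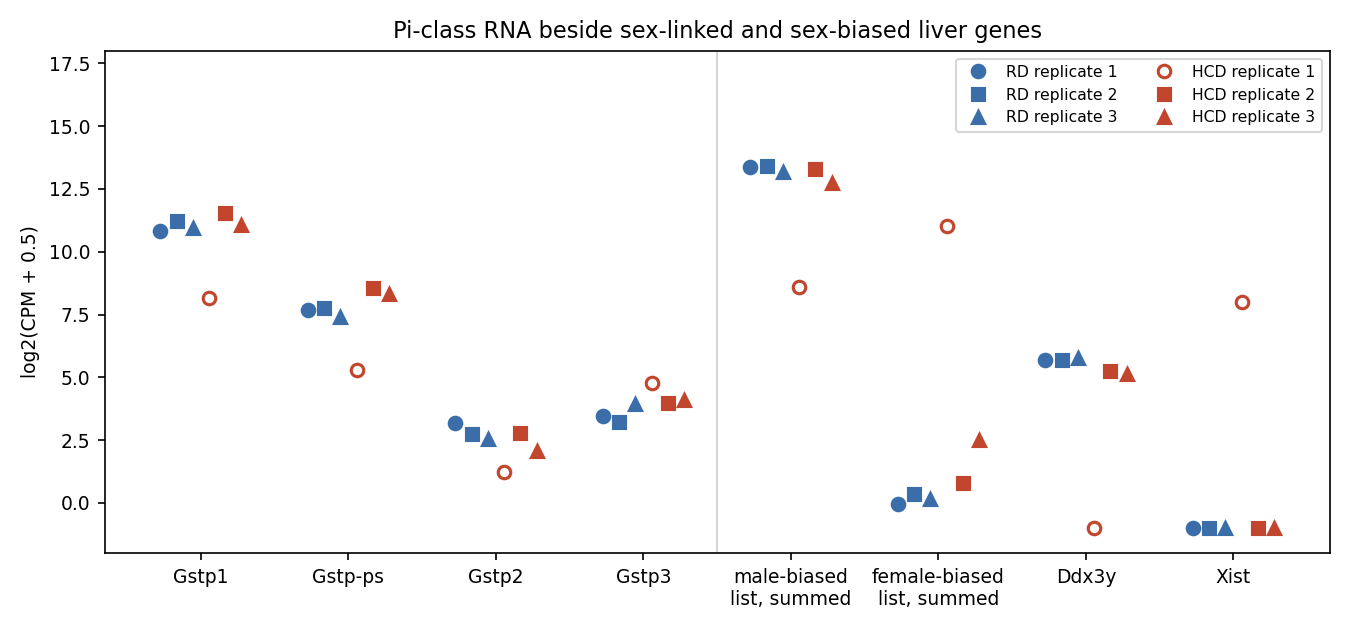
Log2 of CPM plus 0.5 for the Pi genes and Gstp-ps (left of the grey line) and for 2 sex-biased gene lists, Ddx3y and Xist (right), in each of the 6 livers. Blue symbols are RD, red symbols HCD and the open circle is HCD replicate 1. That liver is lowest for Gstp1, Gstp-ps, Gstp2, the male-biased list and Ddx3y, and highest for Gstp3, the female-biased list and Xist.

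HCD replicate 1 also had the lowest summed level of the male-biased list. All 12 male-biased genes tested had negative log2 fold changes (median -1.20), none of them called by edgeR with all livers (3 at an unadjusted p under 0.05, 1 by DESeq2). Without HCD replicate 1 the median was -0.62, 3 of them were called lower (Selenbp2, Cyp7b1 and Nudt7) and Cyp4a12b (0.14), Cyp2d9 (0.23) and Mup20 (0.13) turned positive, all named after their values were seen. None of the 12 female-biased genes passed the low-count filter, which asks for enough reads in at least 3 livers. Over the 6 livers, the non-member genes whose log2 CPM ran most like that of Gstp1 were Gm10319 (Pearson r 0.998), Mup21 (0.997) and Mup20 (0.993), among 9107 genes whose mean was 5 CPM or more. Mup20 encodes a urinary protein of male mice and measured 3002, 4642 and 3190 CPM with RD and 37.1, 5004 and 2900 CPM with HCD. These values of r rest largely on 1 liver and are a description, and the part of sex in the Pi values was not tested.

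The starts of Gstp1 and Gstp2 are shown because these near copies shared the low liver. RefSeq promoter windows on GRCm38.p6 were matched by symbol for 8 of the 10 members, with 9 windows in all, and the 250 bases upstream of each start were searched on both strands. The words were TGANTCA (AP-1, the site of Fos and Jun proteins), TGACNNNGC (the core of the antioxidant response element that NRF2 binds) and TATAAA, which do not overlap in the matches found. The AP-1 word was found for Gstp1 and Gstp2 (2 of 8 members) and in 6.75% of 32851 promoter windows. The antioxidant core was found only for Gsta3 among the 8 and in 10.2% of windows, and TATAAA only for Gsta2 and in 12.4% of windows. Each line below holds 100 bases on the minus strand, 5′ to 3′, with the AP-1 word in capitals.
Gstp1, chr19:4037972-4038071: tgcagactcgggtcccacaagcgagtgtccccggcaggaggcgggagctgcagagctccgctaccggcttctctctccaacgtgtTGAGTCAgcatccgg
Gstp2, chr19:4042296-4042395: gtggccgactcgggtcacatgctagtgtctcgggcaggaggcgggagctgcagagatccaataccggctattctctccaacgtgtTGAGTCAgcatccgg

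The word began 74 bases upstream of the RefSeq start of Gstp1 and 89 bases upstream of that of Gstp2. The starts in M21 differ, so the Gstp2 window lies inside the M21 extent of that gene and the Gstp1 window spans its M21 start. Over their aligned columns the 2 windows of 250 bases were 78.5% identical, against 70.5% for Gsta1 and Gsta2 and 46.0% for Gstp1 and Gstp3. A match of letters describes the sequence and does not show that a factor was bound.

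Gstt2, a Theta enzyme known to act on sulfate esters and on organic hydroperoxides, was the 1 member of its class to pass the test. It measured 28.6, 22.8 and 29.0 CPM with RD and 55.4, 39.3 and 60.5 CPM with HCD. The lowest HCD liver was above the highest RD liver. Gstt2 rose 1.93-fold, a log2 fold change of 0.95 (adjusted p = 0.0380, standard error 0.19, exact permutation p = 0.1). The call was close to the threshold and held only without HCD replicate 2 among the 6 omissions. It was lost without RD replicate 1 (adjusted p = 0.142), RD replicate 2 (0.165), RD replicate 3 (0.0838), HCD replicate 1 (0.0699) or HCD replicate 3 (0.108), while the log2 fold change stayed between 0.81 and 1.10.

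Gstt3 had a higher mean change than Gstt2 and more scatter. It measured 29.5, 19.0 and 29.7 CPM with RD and 77.0, 24.9 and 65.3 CPM with HCD. HCD replicate 2 fell inside the RD range, and the other 2 HCD livers were above it. The log2 fold change was 1.09 (adjusted p = 0.151, standard error 0.38, exact permutation p = 0.3), and 0.78 without HCD replicate 1 (adjusted p = 0.289). Without HCD replicate 2 it was 1.44 and passed the test (adjusted p = 0.0322), and DESeq2 called it with all 6 livers (adjusted p = 0.0151). An overlapping locus, Gm20441, shares 525 bases with it in the annotation and was not used here.

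Gstt1, the most abundant Theta member and the one known for acting on dichloromethane, measured 236.9, 190.2 and 229.1 CPM with RD and 326.9, 204.3 and 376.6 CPM with HCD. As for Gstt3, HCD replicate 2 lay within the RD range. Its difference of 0.47 on the log2 scale (standard error 0.23) did not pass the test (adjusted p = 0.281, exact permutation p = 0.3). It was 0.27 without HCD replicate 3 (adjusted p = 0.564) and 0.68 without HCD replicate 2 (adjusted p = 0.0801). The non-member genes whose log2 CPM ran most like that of Gstt1 over the 6 livers were Amotl1 (Pearson r 0.996), Gpt (0.988) and Chchd3 (0.986). For Gsta3 they were Rcc1l (0.995), Nat9 (0.994) and Aspscr1 (0.985). The livers, and the diets within them, are shared by all of these values.

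**Figure D4:**
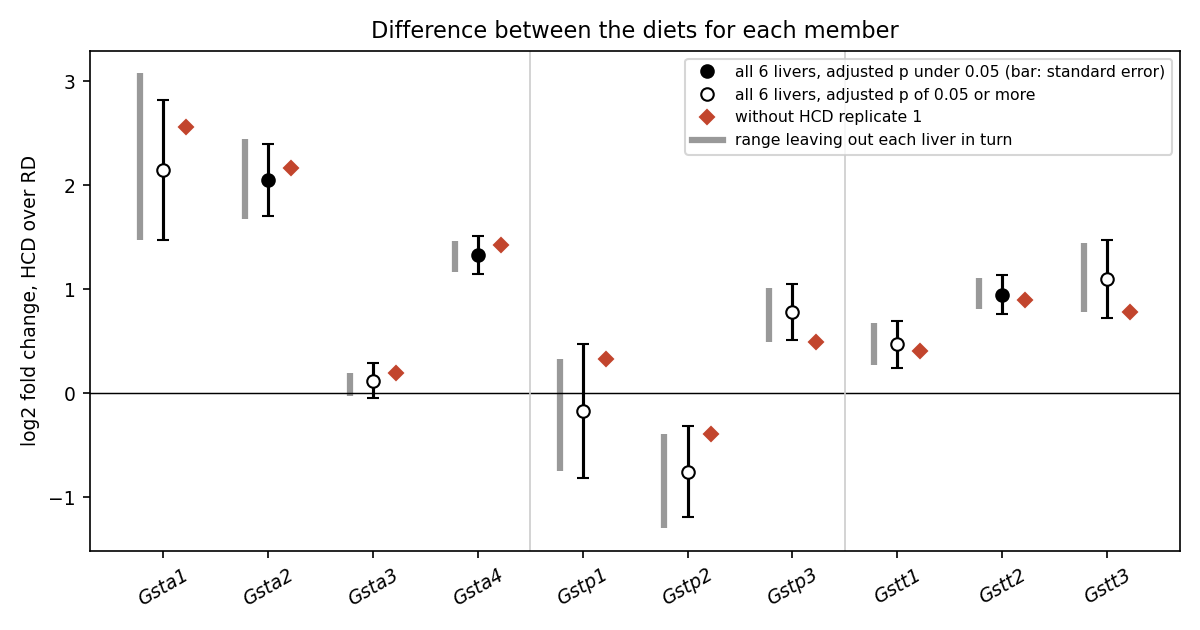
Log2 fold change of HCD over RD for each member, with standard error bars, in order of class. Filled circles passed the test (Gsta2, Gsta4 and Gstt2), open circles did not, red diamonds are the values without HCD replicate 1, and grey bars span the values with each liver left out in turn. The diamond of Gstp1 lies at 0.33, on the other side of 0 from its circle.

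The 3 classes were set side by side by their counts and medians, without a test between them. In the Alpha class 2 of 4 members were called higher, with a median log2 fold change of 1.69 (0.12 to 2.15). DESeq2 called 2 Alpha and 2 Theta members higher, among 554 genes that it called higher in all. In the Theta class 1 of 3 was called higher by edgeR, with a median of 0.95 (0.47 to 1.09). In the Pi class none of 3 was called by edgeR (1 at an unadjusted p under 0.05, and none by DESeq2), with a median of -0.18 (-0.75 to 0.78). Over all 13105 genes tested the median was 0.01, 1.95% were called higher and 1.32% lower. Of the 10 members 3 were called higher and none lower, and 8 had a log2 fold change above 0, as did 6643 of the 13105 genes tested. At an unadjusted p of 0.05 or less, 6 members were higher and none lower (none lower by DESeq2 either). Beside this, 11.1% of all genes tested were higher and 1286 of the 13105 were lower. For 4 members (Gsta2, Gsta4, Gstp3 and Gstt2) every HCD liver was above every RD liver, as for 14% of the genes tested. Several of these genes are among those the study names from the same livers, so these counts are not independent evidence of a direction. All values share the same 6 livers.

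Without HCD replicate 1 the class medians were 1.79 for Alpha, 0.33 for Pi and 0.78 for Theta, and 2 members (Gsta2 and Gsta4) were called higher, beside 1.51% of the genes tested. The number of members called higher was 0 without RD replicate 1, RD replicate 2 or HCD replicate 3, 2 without RD replicate 3, and 4 without HCD replicate 2. Over all genes, calls of higher RNA numbered 255 with all livers, 15, 20 and 73 without RD replicate 1, 2 or 3, and 200, 192 and 53 without HCD replicate 1, 2 or 3.

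The length of a gene moved with the difference between the diets in these libraries. With the genes tested split by length into 10 equal groups, the shortest group had a median log2 fold change of 0.32, and Gsta1, Gsta2, Gsta4 and the 3 Pi genes fell in it. Gstt1 fell in the next group (median 0.22), while Gstt2 and Gstt3 (group median 0.02) and Gsta3 (group median -0.02) were longer. With the length trend removed, the class medians were 1.49 for Alpha, -0.49 for Pi and 0.97 for Theta. Gsta2 (1.84, adjusted p = 0.0341), Gsta4 (1.14, 0.0227) and Gstt2 (0.97, 0.0449) were still called.

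In FPKM summed over members, the Pi class led in 5 of the 6 livers. Pi summed to 3495, 4587 and 3911 FPKM in RD replicates 1, 2 and 3 and to 628, 5793 and 4334 FPKM in HCD replicates 1, 2 and 3. Alpha summed to 542, 512 and 585 FPKM with RD and 686, 723 and 919 FPKM with HCD, and the diets did not overlap. Theta summed to 247, 194 and 246 FPKM with RD and 373, 216 and 417 FPKM with HCD, and the diets overlapped. Pi made up 81.6% to 86.7% of the summed FPKM of the 10 members in RD livers, 86.0% and 76.4% in HCD replicates 2 and 3, and 37.2% in HCD replicate 1. In that liver alone Alpha, at 40.7%, was the largest class. Gstp1 was 98.9% to 99.4% of the Pi sum in RD livers and 90.4% in HCD replicate 1. In whole tissue, a change in the cells present and a change of RNA per cell cannot be told apart.

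**Figure D5:**
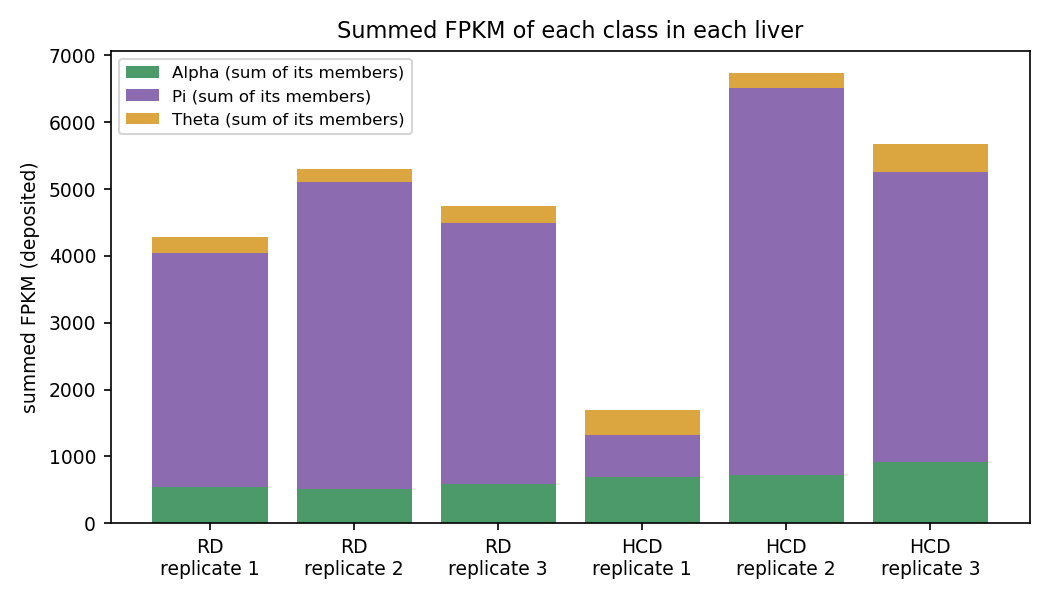
FPKM summed over the members of each class (stacked bars from 0) in each of the 6 livers. Pi is the tallest part in all livers but HCD replicate 1, where it is 628 FPKM against 686 for Alpha, and Alpha is higher in each HCD liver (686 to 919 FPKM) than in any RD liver (512 to 585 FPKM).

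Other genes of glutathione handling gave the setting for these changes. Of 15 other glutathione transferase and related genes tested, 3 rose and none fell by edgeR (6 at an unadjusted p under 0.05, 5 by DESeq2). A log2 fold change above 0 was seen for 14 (median 0.47). The risers were Gstm1 (1.34, adjusted p = 0.0407) and Gstm3 (1.82, adjusted p = 0.0473), of the Mu class, and Gsto1 (0.78, adjusted p = 0.0313), of the Omega class. Gsto1 lost its call without HCD replicate 1 (0.68, adjusted p = 0.0544), which left 2 called. Of 12 genes of the peroxidases and redox cycle, 1 rose by edgeR (5 at an unadjusted p under 0.05, 1 by DESeq2, list median 0.30). The edgeR call was Gpx1, the cytosolic peroxidase that uses glutathione against hydrogen peroxide (1.11, adjusted p = 0.0293). None of the 7 genes tested from the synthesis list was called by edgeR (3 at an unadjusted p under 0.05, 1 by DESeq2, median -0.18). Besides the enzymes of the synthesis steps, that list holds Cth (-0.18), Cbs (-0.27), Gnmt (-0.52) and Slc1a5 (-0.40), all with log2 fold changes below 0. The enzymes of the synthesis steps, named here after their values were seen, were the 3 with an unadjusted p under 0.05, and they measured log2 fold changes of 0.52 (Gclc, adjusted p = 0.192), 0.47 (Gclm, 0.0998) and 0.52 (Gss, 0.0952). Without HCD replicate 1, Gss was called higher (0.64, adjusted p = 0.0486). None of the 19 genes of conjugate export and turnover was called either (3 at an unadjusted p under 0.05, 1 by DESeq2, median 0.08).

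Lists of target genes of the factors known to act on these transferases were described in the same way. Of 21 NRF2 targets outside glutathione handling, 2 rose by edgeR (8 at an unadjusted p under 0.05, 5 by DESeq2, median 0.38). The larger change of these 2 edgeR calls was that of Cbr1, a carbonyl reductase (1.40, adjusted p = 0.0130). Of 21 CAR and PXR targets, 3 rose by edgeR (8 at an unadjusted p under 0.05, 6 by DESeq2, median 0.51). Among these 3 edgeR calls the change was largest for Cyp2a5, a cytochrome P450 (1.57, adjusted p = 0.0124). Of 6 AhR targets none was called by edgeR (1 at an unadjusted p under 0.05, 1 by DESeq2, median -0.10). No gene of these 3 lists was called lower by edgeR. The lists were written with earlier results of these data known, and the activity of the factors was not measured.

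Markers of other liver cells were counted because the samples are whole tissue. By edgeR none of 9 cholangiocyte markers tested passed the test (1 at an unadjusted p under 0.05, 0 by DESeq2, median 0.60, summed 59.5 to 116.2 CPM with RD and 96.4 to 120.5 CPM with HCD). All 10 Kupffer cell markers had log2 fold changes above 0 without any being called by edgeR (5 at an unadjusted p under 0.05, 4 by DESeq2, median 0.84), and they summed to 168 to 277 CPM with RD and 230 to 506 CPM with HCD. None of 10 sinusoidal endothelial markers (1 unadjusted, 0 by DESeq2, median 0.24) or 10 stellate cell markers (2 unadjusted, 0 by DESeq2, median 0.41) was called by edgeR. Of 5 red cell genes tested, 2 rose by edgeR, the globin genes Hba-a1 and Hbb-bs (3 unadjusted, 3 by DESeq2). The list median was 2.28, and the list summed to 138 to 239 CPM with RD and 177 to 468 CPM with HCD. Of 10 pericentral genes none was called by edgeR (1 unadjusted, 1 by DESeq2, median -0.22), and of 10 periportal genes 1 rose, Hsd17b13 (median 0.15), which was not called without HCD replicate 1 (adjusted p = 0.0580). Without that liver the sinusoidal median was -0.0041 and the pericentral median -0.44. No marker of these 3 supporting cell lists or of the bile ducts was at 0 in all livers, and the part of other cells in the values of the members was not tested.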

How the data were processed

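RNA from 3 RD and 3 HCD livers was sequenced by a service laboratory. The authors deposited raw read counts per gene, whole numbers without normalization, and FPKM, fragments scaled by gene length and by a library total that is not stated. The log2 fold changes and p-values that the authors deposited, from their own comparison, were not used. The submitters' processing notes name STAR, HTSeq, DESeq2, edgeR and GRCm39 without versions. Library kit and strand are not given in the sources used here.

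Counts were tested in R 4.3.3 with edgeR 4.0.16. Low counts were removed by filterByExpr (13105 of 20673 genes kept, 99.4% to 99.9% of counts), library sizes were scaled by TMM (factors 0.886 to 1.07), and diet was tested without covariates by the two-sided quasi-likelihood F test. P-values were adjusted by Benjamini-Hochberg over all genes tested and called under 0.05, and log2 fold changes are HCD over RD. The common biological coefficient of variation was 27.8%. The fits were tested on simulated data. Permutation tests were exact over 20 assignments, on log2(CPM + 0.5). Coverage behind each value is set by 13771630 to 23129576 counts per library, and intervals between livers cover more than counting error.

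Implied gene lengths equalled GENCODE M21 within 0.1% for 95.5% to 95.9% of genes. Of the identifiers, 20653 were in M21 and 20504 had the same symbol. Coding sequences came from M21 and were aligned with Biopython 1.88, and copies were found with minimap2 2.31. Coding bases stood in for the protein identities first planned.

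Named were all 10 members, called genes of the 4 glutathione lists (up to 5 in each direction), the largest called change in each transcription factor list, the 3 genes most like the leading member of each class, and marker lists by counts. Genes named from the red cell, periportal and diet lists were named after their values were seen. Some genes of the diet list are not reported here. Members and lists were chosen with earlier results of these data known. Alternatives were RLE and upper-quartile factors, library totals, DESeq2 1.42.0, no filter, only genes averaging 50 counts or more, limma 3.58.1 with a trend on log2(FPKM + 1) and log2(FPKM + 0.1), removal of the length trend by loess offsets (span 0.5, degree 1), the replicate block, summed copies, other thresholds and each liver left out. Lists without HCD replicate 1 and sums with further copies were added after seeing the data.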

Additional observations from a re-analysis of the deposited data

How the results depend on the processing

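The main calls were 255 genes higher, 173 lower and 3 members higher. Genes called higher numbered 158 with library totals alone, 554 with DESeq2, 141 in the limma fit on log2(FPKM + 1), 141 with the length trend removed, 1453 without adjustment and 18 at an adjusted p under 0.01. Genes called lower numbered 441 with DESeq2, 285 without a low-count filter, 78 in the limma fit on log2(FPKM + 1), 98 in that on log2(FPKM + 0.1), 108 with the length trend removed, 1286 unadjusted and 22 at an adjusted p under 0.01. Members called higher numbered 1 in the limma fit on log2(FPKM + 1), 6 unadjusted and 0 at an adjusted p under 0.01. The replicate numbers did not pair the livers (correlations of deviations -0.08, 0.09 and -0.04). With the replicate block 71 genes were called higher and 65 lower, and 3 members were called higher.

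Leaving out each liver in turn gave 15 (without RD replicate 1) to 200 (without HCD replicate 1) genes higher, 21 to 141 lower, 0 to 4 members higher, and a Pi median of -0.75 to 0.33. Of single members, these changed direction: Gstp1 to 0.33 without HCD replicate 1 and Gsta3 to -0.023 without HCD replicate 3 (-0.023 to 0.19 over the 6 omissions; Gstp1 -0.75 to 0.33). Gsta2 lost its call in the limma fit on log2(FPKM + 1), and Gstt2 with both limma fits and with library totals. The Alpha and Theta medians stayed above 0 in all of these settings. CPM per kilobase used the lengths behind the FPKM and so could not test the order of RD levels. The cause of these differences was not tested. Depth is least for Gsta1, with 25 to 329 counts per liver, and Gstp2, with 36 to 177.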
